A study of Mus musculus with 17 samples.

Results

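The comparison without injury set lung cultures from 5 Ephb4 conditional knockout (CKO) mice given PBS against those from 4 Ephb4 control mice given PBS. It took 9 of the 17 libraries of the series and the 10481 of 55421 genes that exceeded 10 CPM (counts scaled to a common library total) in at least 2 of the 17 libraries. The cultures are labelled as primary fibroblasts, but all 9 carried macrophage markers at a high level. All mice carried the alleles Ephb4f/f; Col1a2-CreERT2, so the controls held the floxed receptor gene and the inducible recombinase as well. At 4 weeks of age the CKO mice received 4-hydroxytamoxifen, 1 mg per day for 5 days, and the control mice received its vehicle, corn oil. PBS was instilled in place of bleomycin at 6 weeks of age, cells were grown from the lungs at day 14, and total RNA was taken after a single passage, with no treatment in the dish. Each library stands for 1 mouse, and the males numbered 1 of 4 among the controls and 3 of 5 among the CKO mice. The other 8 libraries came from 4 control and 4 CKO mice given bleomycin at 1.2 U/kg, and served here to estimate the spread between mice and to set each difference beside its counterpart after injury. Cre was driven from the Col1a2 promoter, so recombination was directed to cells that express type I collagen, and no group received 4-hydroxytamoxifen without the floxed alleles. An effect of the drug and an effect of the deletion cannot be told apart in this design.

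EphB4 is a receptor tyrosine kinase that binds ephrin-B2 on a neighbouring cell, and the pair signals in both directions, into the receptor-bearing and the ligand-bearing cell. It is best known for setting the boundary between arteries and veins. Lung fibroblasts make the collagens, elastin and crosslinking enzymes of the alveolar wall, and the coated vesicles of the early secretory pathway carry procollagen from the endoplasmic reticulum to the Golgi. The comparison asks how cultures from CKO and control mice differed in the absence of fibrotic injury.

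Gene counts summed to between 74005256 and 109540398 in the control libraries and between 66540022 and 110245390 in the CKO libraries, so 3 counts, the limit that a count of 0 allows, corresponded to at most 0.0451 CPM of the column total, before TMM scaling, in any library. From 18.3% to 35.2% of the counts of a PBS library fell on 8 noncoding RNAs. Genes of the sex chromosomes matched the labelled sex in all 9 PBS libraries and in 14 of the 17 libraries of the series. The 3 that did not match were all from bleomycin-treated mice, of both genotypes, and the counts without them are given in the closing section. The PBS libraries did not separate by genotype. In 8 of 9, the library with the highest correlation of log2 CPM across genes was one of the other genotype. The median correlation was 0.83 over the 20 pairs of a CKO with a control library, 0.83 over the 10 pairs of CKO libraries and 0.77 over the 6 pairs of control libraries; genes are not independent replicates and no test was made of these values. Control 1 and CKO 2 were the most alike of all, with a correlation of 0.96.

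Ephb4 (ENSMUSG00000029710, chr5:137350109-137378669 of GRCm38, plus strand), the gene targeted for deletion, was present in all 9 cultures at levels that overlapped between the genotypes. It stood at 24.5, 4.06, 33.9 and 2.35 CPM in the 4 control cultures and 7.81, 23.9, 9.09, 4.06 and 4.10 CPM in the 5 CKO cultures. Control 1 and control 3 were high and control 2 and control 4 were low, whereas CKO 2 reached the level of the high controls. The group means were 16.2 CPM ± 15.5 (SD, n = 4) and 9.79 CPM ± 8.20 (SD, n = 5). The log2 fold change, CKO minus control, was -0.73 (SE 0.72) with a 95% interval from -2.27 to 0.81. A second measure, the difference in mean log2 CPM, gives each mouse the same weight and is not the fold change of edgeR. Its exact permutation over the 9 mice gave a 2-sided p of 0.786, where the smallest p that 126 regroupings allow is 0.00794. The log2 fold change of edgeR was -0.04 without control 3 and -1.37 without CKO 2. After bleomycin the same contrast was -1.998 (SE 0.79), and the 2 contrasts did not differ beyond their error (difference -1.27, unadjusted p = 0.25 by edgeR, adjusted p = 0.916). The table counts reads over the whole gene, and the exons that the floxed allele removes are not given in the sources used here.

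Close relatives of Ephb4 varied from culture to culture as much as the receptor itself, with overlapping genotypes. Ephb2, Ephb3, Efnb1 and Efnb2 were each highest in control 1, control 3 and CKO 2, the cultures with the most Ephb4. Of 14 Eph receptor genes, 6 passed the filter, as did 3 of 8 ephrin genes, and none of the 9 reached an unadjusted p of 0.05. Ephb2, a related receptor for B-type ephrins, had 17.9, 3.48, 18.7 and 0.0203 CPM in the 4 control cultures and 0.371, 21.1, 8.05, 2.23 and 0.590 CPM in the 5 CKO cultures, and Ephb3 ranged from 0.315 to 13.9 CPM and from 0.376 to 9.39 CPM. Both were lowest in control 4, CKO 1 and CKO 5, and the Ephb2 value of control 4 stood for no more than 3 counts. Their log2 fold changes were -0.63 (SE 1.27) and -0.69 (SE 1.01). Efnb2, the ligand of EphB4, had 36.9, 3.18, 21.3 and 1.10 CPM in the 4 control cultures and 2.95, 60.1, 7.82, 4.83 and 2.06 CPM in the 5 CKO cultures. CKO 2 held the highest value of the 9 and control 4 the lowest, and the log2 fold change was -0.01 (SE 0.98). Efnb1 gave -0.36 (SE 0.73). Epha2, an Eph receptor also used by epithelial cells, was highest in CKO 2 at 180.5 CPM and in control 1 at 137 CPM, and its log2 fold change was 0.05 (SE 0.94). The same CKO 2 and control 1 cultures had the highest level of Krt8, an epithelial keratin, at 1058 and 878 CPM, and of Msln, the mesothelial marker mesothelin, at 609.9 and 408 CPM. The part of these cells in the Eph and ephrin levels was not tested.

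**Figure D1:**
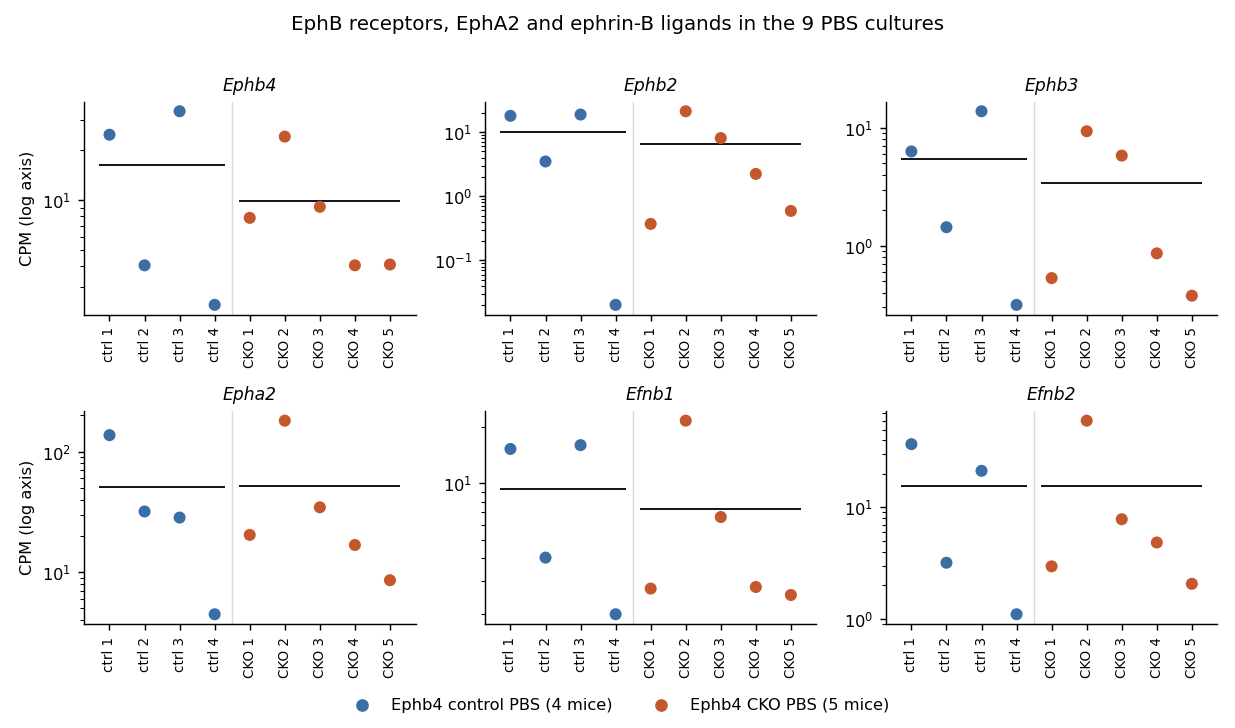
Level of Ephb4, Ephb2, Ephb3, Epha2, Efnb1 and Efnb2 in each PBS culture (CPM, log axis), with control and CKO mice side by side and a line at each group's arithmetic mean. The genotypes overlap for all 6 genes, and Ephb4 runs from 2.35 to 33.9 CPM within the control group alone.

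Cultures of the same genotype differed widely in their cell content. All 9 carried the markers of macrophages at a high level, although they are labelled as primary fibroblasts. The CPM of the 15 macrophage markers summed to between 10122 and 43725 in the controls and between 23394 and 40881 in the CKO cultures. The 12 fibroblast markers that passed the filter summed to between 45.8 and 7739 CPM and between 85.8 and 2344 CPM. In bulk libraries, fewer cells of a type and less RNA per cell cannot be told apart. As a mean of log2 CPM over those markers, the fibroblast level was 3.07, 0.69, 7.31 and -0.57 in the 4 control cultures and 1.87, 0.90, 5.80, 0.65 and 2.75 in the 5 CKO cultures. Control 3 and CKO 3 stood far above the other 7 cultures. Col1a1, the main chain of type I collagen, had 35.4, 1.90, 873 and 0.365 CPM in the 4 control cultures and 2.98, 29.9, 151, 2.49 and 14.2 CPM in the 5 CKO cultures, and Pdgfra, a receptor that marks lung fibroblasts, had 7.63, 8.06, 389.7 and 3.07 CPM in the 4 control cultures and 2.93, 2.82, 169, 6.61 and 8.46 CPM in the 5 CKO cultures. For these genes too, control 3 was the highest and CKO 3 the next. The fibroblast marker Fn1, fibronectin, had another order, with 1521 CPM in CKO 2 and 1034 CPM in control 1 above the 722 CPM of control 3. Lum and Tcf21 did not pass the filter.

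Of the 12 fibroblast markers, 3 were higher and 9 lower in CKO, none at an unadjusted p of 0.05, with a median log2 fold change of -1.72 beside a median of -0.02 over all genes tested. That median rested on 1 control and 1 CKO mouse: it was 2.29, with 12 of 12 markers higher in CKO, without control 3, and -3.88, with 6 markers lower at an unadjusted p of 0.05, without CKO 3. In the mean of log2 CPM, which gives each mouse the same weight, the genotypes differed by -0.23 (2.62 ± 3.47 against 2.39 ± 2.08, SD, n = 4 and 5). Smooth muscle markers gave a median of -0.53, with 3 of 7 higher, and with 1 culture left out it ran from -1.14 without CKO 2 to 0.25 without control 3. Their mean log2 CPM gave CKO minus control of 0.26. Among them Acta2, the smooth muscle actin of myofibroblasts, had 161, 1.77, 451 and 5.50 CPM in the 4 control cultures and 19.3, 179, 57.6, 14.4 and 56.5 CPM in the 5 CKO cultures. Control 3, CKO 2 and control 1 were highest, and the groups overlapped (log2 fold change -1.25, SE 1.35).

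Macrophage markers leaned the other way: 13 of 15 were higher in CKO, 2 of them at an unadjusted p of 0.05, with a median log2 fold change of 0.42 (from 0.17 without control 3 to 0.99 without control 4). Over all genes tested, 46.4% had a log2 fold change above 0 and 1.43% were higher at that threshold. Lyz2, the lysozyme of macrophages, was nonetheless at 20161, 37092, 7816 and 29724 CPM in the 4 control cultures and 8456, 18728, 29046, 26942 and 24487 CPM in the 5 CKO cultures, with a log2 fold change of -0.14 (SE 0.62). Itgam, the CD11b integrin chain, had 148, 185, 258 and 246 CPM in the 4 control cultures and 1050.0, 88.4, 412, 406 and 708 CPM in the 5 CKO cultures. All CKO cultures but CKO 2 exceeded every control (log2 fold change 1.35, SE 0.52, unadjusted p = 0.0212). Alveolar macrophage markers had a median of -0.59 (from -1.53 without CKO 3 to -0.04 without control 2), with 9 of 11 lower and none at that threshold, and Siglecf, a lectin that marks these cells, was at 1.90 and 14.5 CPM in CKO 1 and CKO 5 against 45.4 to 182 CPM in the other 7 cultures. The 7 markers of C1q-expressing and interstitial macrophages were all higher, 3 at an unadjusted p of 0.05, with a median of 3.24, and this difference came from 1 mouse. C1qa, a chain of the first complement component, had 20.2, 11.96, 14.9 and 29.1 CPM in the 4 control cultures and 7.25, 17.9, 21.9, 11.9 and 957 CPM in the 5 CKO cultures. Only CKO 5 stood apart, and without it the median of the list was -0.36 with 0 markers at that threshold.

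Other cell types were present at lower and uneven levels. All 8 epithelial markers tested were lower in CKO (median -0.32), as were 7 of 8 endothelial ones (median -0.33), none at an unadjusted p of 0.05. Both directions turned with 1 control left out. Without control 1, 6 of 8 epithelial markers were higher (median 0.49), and without control 3, 7 of 8 endothelial ones (median 0.66, 1 at that threshold). The epithelial direction also weakened without single CKO cultures. Without CKO 1 and without CKO 5, 4 of 8 epithelial markers were higher (medians -0.05 and -0.06). Without CKO 4, 3 of 8 were higher (median -0.13). The summed CPM of the epithelial markers ran from 122 to 2313 in the controls and from 115 to 2667 in the CKO cultures, and that of the endothelial markers from 57.7 to 348 and from 86.9 to 285. Of the neutrophil and the mesothelial markers, 1 each passed the filter, and no lymphocyte or dendritic cell marker did. The dendritic marker Cd209a was at or under 3 counts in all 9 libraries.

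**Figure D2:**
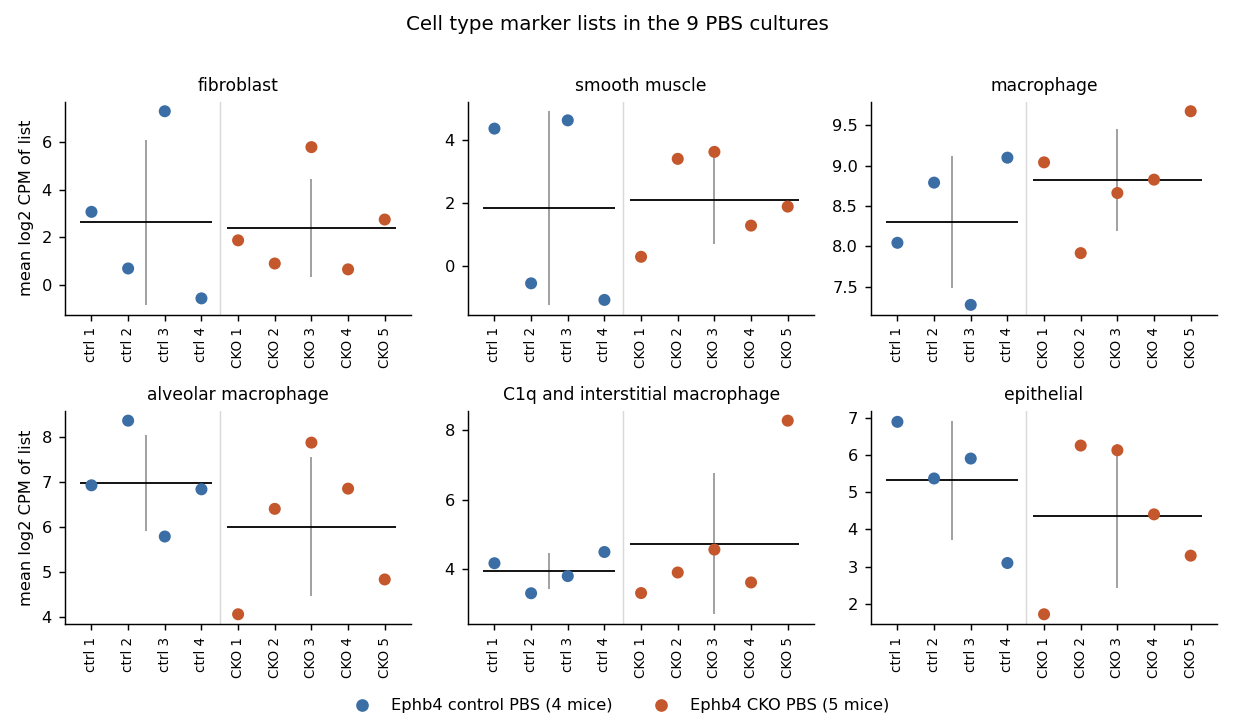
Mean log2 CPM of the markers of 6 cell types in each PBS culture. Points are mice, the line is the group mean and the grey bar the SD. Fibroblast markers run from -0.57 to 7.31 across the 9 cultures and macrophage markers from 7.27 to 9.68, and the genotypes overlap in every panel.

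Across the transcriptome no gene passed the test between the genotypes. With edgeR, 0 of 10481 genes (0%) reached the threshold of 0.05 after adjustment, where the lowest value of any gene was an adjusted p of 1.00. Before adjustment 209 genes lay under 0.05, of which 150 were higher in CKO (1.43% of those tested) and 59 were lower (0.563%). Where no gene differs, a share of about 0.05 is expected under this threshold, and the shares here were lower. DESeq2 called 1 gene, Mmp13, and limma's voom called 0. The count of 0 goes with a wide spread between mice: the biological coefficient of variation was 0.56, the median standard error of a log2 fold change was 0.28, and 822 genes (7.84%) had a standard error above 1. On the other side, 6562 genes (62.6%) had a 95% interval that lay within 2-fold of the control level, so for most genes a larger difference was outside the interval. The log2 fold change exceeded 1 in size for 670 genes, 350 higher and 320 lower. It was above 0 for 4860 genes (46.4%) and below 0 for 5621. In 3 genes (0.0286%) every CKO culture lay above every control, and in 23 genes (0.219%) every CKO culture lay below every control. Where no gene differs, a share of about 0.00794 is expected in each direction, from 1 of 126 regroupings of the mice. Both shares here were lower.

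Hist1h2bc (ENSMUSG00000018102, chr13:23684199-23692908 of GRCm38, plus strand), a histone H2B gene, had the smallest p among the histone genes. It stood at 59.3, 53.7, 47.4 and 71.4 CPM in the 4 control cultures and 109, 61.3, 101, 69.9 and 115 CPM in the 5 CKO cultures. The CKO cultures were higher, apart from CKO 2 and CKO 4, which lay below the 71.4 CPM of control 4, and the log2 fold change was 0.65 (SE 0.18, unadjusted p = 0.00277). The replication-dependent histone genes as a list were higher in 53 of 60 cases, 1 at an unadjusted p of 0.05, with a median of 0.39, and this direction rested on CKO 3, without which 56 of 60 were lower (median -0.72). Their mean log2 CPM, with each mouse at the same weight, gave CKO minus control of -0.16. The share of all genes higher at that threshold was 1.43%. Cell cycle genes were lower in 20 of 21 cases, none at that threshold, with a median of -0.37 and 2 held within 2-fold. That median ran from -1.09 without CKO 3 to -0.02 without control 3, with 10 of 21 higher without control 3. It was 0.01 with the macrophage level and -0.21 with the fibroblast level as a covariate. Mdm2, the ubiquitin ligase that restrains p53, had 79.8, 83.1, 56.7 and 80.7 CPM in the 4 control cultures and 187, 86.0, 61.0, 104 and 212 CPM in the 5 CKO cultures. CKO 1 and CKO 5 carried its log2 fold change of 0.79 (SE 0.36, unadjusted p = 0.0413), and the p53 and senescence list had a median of -0.02 (from -0.44 without CKO 2 to 0.26 without control 1).

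**Figure D3:**
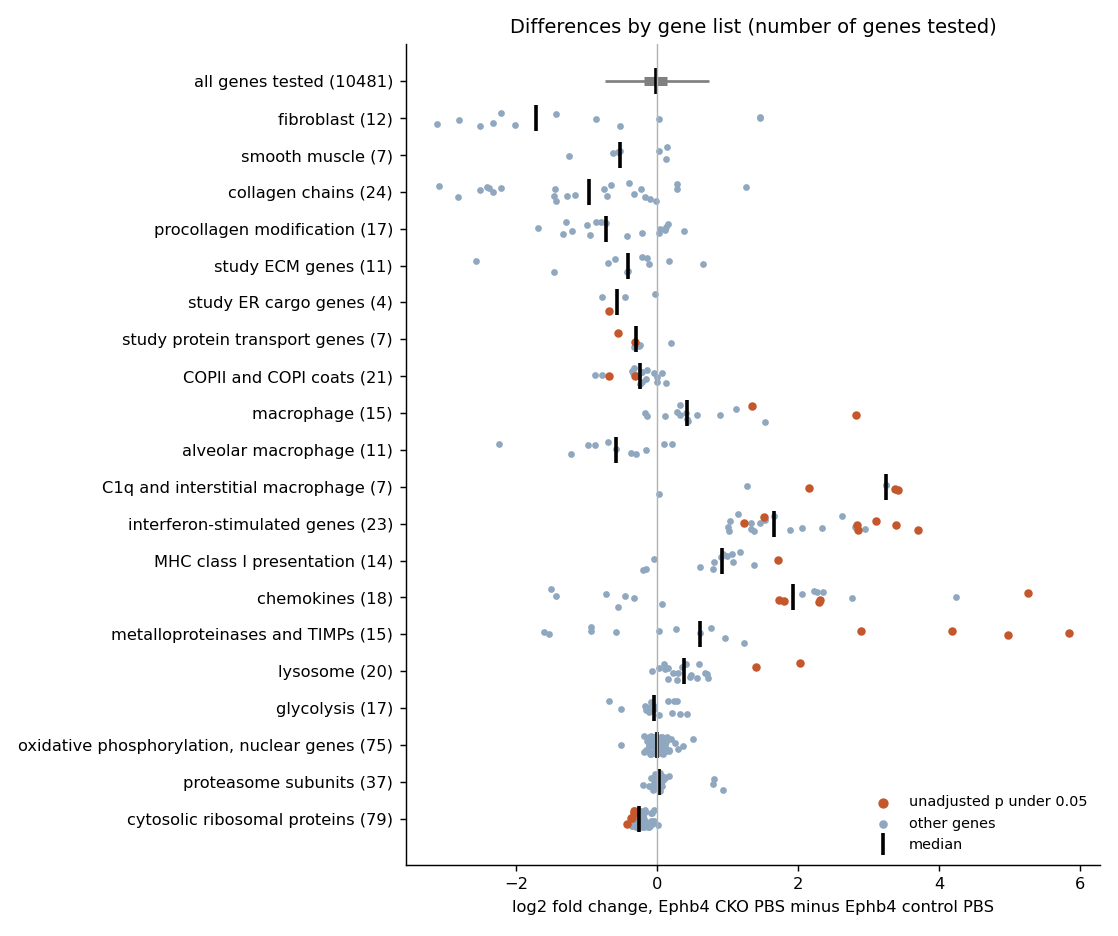
Log2 fold change, CKO minus control after PBS, of every tested member of 20 gene lists. Each point is a gene, orange where its unadjusted p is under 0.05, and the black tick is the list median. The top row gives all 10481 genes, with a thin bar from the 5th to the 95th and a thick bar from the 25th to the 75th percentile. Ribosomal protein, proteasome and oxidative phosphorylation genes cluster near 0 (medians -0.25, 0.02 and -0.000463), whereas interferon-stimulated genes lie above it (median 1.66) and collagen chains spread widely.

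Matrix genes were at low and very uneven levels without injury, and their difference between the genotypes rested on 1 control and 1 CKO mouse. Of 44 collagen chain genes 24 passed the filter, 21 of them lower in CKO and 3 higher, 0 at an unadjusted p of 0.05, with a median log2 fold change of -0.96 and a median standard error of 1.43. Without control 3 the median was 1.23, with 20 of 24 chains higher in CKO, and without CKO 3 it was -1.84, with 6 chains lower at an unadjusted p of 0.05. In the mean of log2 CPM, which gives each mouse the same weight, CKO minus control was -0.09 for the chains. Col3a1, the chain of type III collagen, had 13.7, 4.71, 3719 and 0.7105 CPM in the 4 control cultures and 1.32, 1.39, 985, 1.57 and 19.7 CPM in the 5 CKO cultures. Control 3 and CKO 3 held nearly all of it. The log2 fold change was -2.21 (SE 2.13), and 4.98 without control 3. Col6a3, a chain of the microfibrillar type VI collagen, behaved alike, with 323 CPM in control 3 and 35.4 CPM in CKO 3 against at most 10.0 CPM elsewhere (log2 fold change -3.09, SE 1.63, 1.92 without control 3). Genes of elastic fibres and crosslinking gave a median of -0.64 (14 of 17 lower) and enzymes that modify procollagen one of -0.72 (11 of 17 lower, 7 held within 2-fold), with 0 genes of either list at an unadjusted p of 0.05. Without control 3 these medians were 0.97 and 0.31, and without CKO 3 -1.33, with 5 genes lower at that threshold, and -0.89. Their mean log2 CPM gave CKO minus control of -0.25 and 0.02. The TGF-beta signalling list had a median of -0.04, the YAP and TEAD target list one of -0.06, the contractile cytoskeleton list one of -0.30 and the list of genes with integrin names one of 0.12, and among their members Itgam alone reached an unadjusted p of 0.05. All 4 medians turned in sign with 1 culture left out, running from -0.28 without CKO 2 to 0.19 without control 3, from -1.36 without CKO 2 to 0.76 without control 1, from -1.36 without CKO 2 to 0.31 without control 1 and from -0.14 without CKO 2 to 0.30 without control 3. In the mean of log2 CPM, CKO minus control was -0.09, 0.01, 0.18 and 0.13 for the same 4 lists.

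The 22 genes that the study singled out among those that differed after bleomycin, 11 of the extracellular matrix, 4 of cargo export from the endoplasmic reticulum and 7 of protein transport, were looked at in the PBS cultures. The study chose them on the bleomycin libraries of this series, so their direction there is not independent evidence. Without injury 9 of 11 matrix genes were lower in CKO, 0 at an unadjusted p of 0.05, with a median log2 fold change of -0.41. Without control 3, 9 of 11 were higher (median 0.41). In the mean of log2 CPM, which gives each mouse the same weight, CKO minus control was 0.14 for the matrix genes. The levels were 4.28 ± 2.01 in the controls and 4.42 ± 0.90 in CKO (SD, n = 4 and 5). All 4 cargo genes were lower, 1 at that threshold (median -0.57), and 6 of 7 transport genes were lower, 2 at that threshold (median -0.30). The share of all genes that were lower at that threshold was 0.563%. Held within 2-fold were 4 of the matrix genes (Itga5, Itgb1, Lamc1 and P4hb), 2 of the cargo genes (Cnih1 and Lman1) and 5 of the transport genes, beside 62.6% of all genes. After bleomycin the corresponding medians were -2.80, -1.12 and -0.78.

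Sec24d, a coat subunit that selects cargo at the endoplasmic reticulum, had 48.1, 107, 112 and 38.5 CPM in the 4 control cultures and 49.0, 46.5, 61.3, 43.1 and 38.8 CPM in the 5 CKO cultures. Control 2 and control 3 were well above all other cultures, whose genotypes overlapped, and the log2 fold change was -0.68 (SE 0.32, unadjusted p = 0.0485). Kdelr2, a receptor that returns escaped chaperones to the endoplasmic reticulum, had 70.8, 97.6, 146 and 60.1 CPM in the 4 control cultures and 73.6, 61.6, 73.2, 62.3 and 46.3 CPM in the 5 CKO cultures, with the same control mice high (log2 fold change -0.56, SE 0.26, unadjusted p = 0.047). Arcn1, the delta subunit of the COPI coat, had 194, 217, 271 and 186 CPM in the 4 control cultures and 161, 164, 173, 200.1 and 178 CPM in the 5 CKO cultures. Its log2 fold change was -0.31 (SE 0.14, unadjusted p = 0.0381), within 2-fold at the 95% level. Leaving out control 3 brought these to -0.43, -0.25 and -0.17. The fibroblast level was 0.69 mean log2 CPM in control 2 and 7.31 in control 3, the highest of the 9 cultures. The part of cell content in the levels of these genes was not tested. Over all 21 subunits of the COPII and COPI coats the median was -0.24, with 18 lower, 2 of them at an unadjusted p of 0.05, and 18 held within 2-fold. The shares of all genes were 0.563% lower at that threshold and 62.6% held within 2-fold.

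For a few of these genes the contrasts after PBS and after bleomycin differed at an unadjusted p. Across all genes the interaction test called 0 of 10481 (0%, smallest adjusted p = 0.916 by edgeR), with 363 (3.46%) at an unadjusted p under 0.05. Of the 22 study genes, 6 were among those 363. The 22 were chosen on the bleomycin contrast, which enters the interaction, so nothing is read from that share. With 1 library left out, the total of 363 ran from 159 without CKO 4 of the bleomycin group to 1244 without control 3. Label numbers began with 12 in all 4 control mice given bleomycin, but in only 2 of the 4 CKO mice given bleomycin. With this number series as a covariate the total was 115. The values of single genes below were fitted without it. Itga5, the alpha chain of the fibronectin receptor, had 48.6, 51.7, 119 and 69.0 CPM in the 4 control cultures and 115, 50.1, 70.4, 68.2 and 102 CPM in the 5 CKO cultures. The groups overlapped and the log2 fold change was 0.17 (SE 0.34) after PBS against -1.46 (SE 0.36) after bleomycin (unadjusted p = 0.00476 for the interaction). Lamc1, a laminin chain, gave -0.15 (SE 0.39) against -1.45 (SE 0.42) with an unadjusted p = 0.0374, P3h1, a prolyl hydroxylase of collagen, -0.42 (SE 0.45) against -2.11 (SE 0.49) with an unadjusted p = 0.0224, and Tubb6, a beta tubulin, 0.20 (SE 0.35) against -1.31 (SE 0.37) with an unadjusted p = 0.0097. Cnih1, a cargo receptor, gave -0.03 (SE 0.15) against -0.60 (SE 0.15) with an unadjusted p = 0.0164 and Kdelr2 -0.56 (SE 0.26) against -1.40 (SE 0.28) with an unadjusted p = 0.043. Eln, elastin, was at 111 CPM in control 3 and 23.0 CPM in CKO 3 and under 1 CPM in the other 7 PBS cultures, so its value of -2.56 (SE 2.16) rested on those mice.

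**Figure D4:**
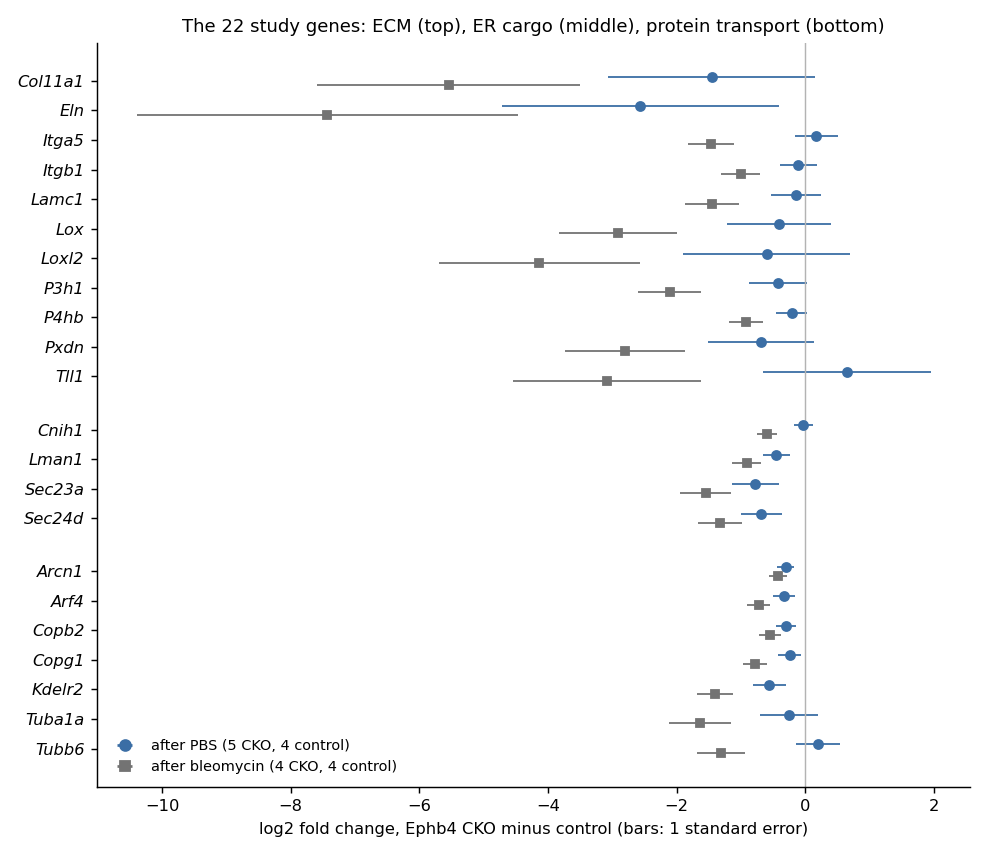
Log2 fold change, CKO minus control, of the 22 study genes after PBS (circles) and after bleomycin (squares), with bars of 1 SE. After PBS the values run from -2.56 for Eln to 0.65 for Tll1, and Itga5 and Tubb6 lie at 0.17 and 0.20 where their bleomycin values are -1.46 and -1.31.

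Interferon-stimulated genes, which type I interferon switches on against viruses, were higher in CKO as a group. All 23 passed the filter and all 23 were higher, 7 at an unadjusted p of 0.05 (1.43% of all genes were higher at that threshold), with log2 fold changes from 1.00 to 3.69 and a median of 1.66. Their mean log2 CPM was 2.89, 4.34, 3.02 and 6.29 in the 4 control cultures and 6.56, 3.502, 5.604, 4.68 and 8.63 in the 5 CKO cultures. CKO 5, CKO 1 and CKO 3 were high, but control 4 exceeded CKO 3 and CKO 2 lay below control 2. Without CKO 5 the median was 0.58 with 20 of 23 higher and 0 at an unadjusted p of 0.05, whereas without control 4 it was 3.31 with 22 at that threshold. CKO 5 also had the highest macrophage marker level of the 9 cultures and control 4 the next, at 9.68 and 9.10 mean log2 CPM. With the macrophage level as a covariate the median was 1.21, with 23 higher and 3 at that threshold. With the fibroblast level as a covariate it was 2.57, with 23 higher and 13 at that threshold. The part of cell content in these levels was not tested.

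Ifit2, an antiviral protein, had 11.2, 18.7, 9.12 and 75.0 CPM in the 4 control cultures and 214, 15.4, 34.4, 18.9 and 935 CPM in the 5 CKO cultures. CKO 5 and CKO 1 lay above all controls and CKO 2, CKO 3 and CKO 4 within their range, with a log2 fold change of 3.10 (SE 1.18, unadjusted p = 0.0192), and of 1.31 without CKO 5. Irf7, which amplifies interferon production, had 9.26, 94.8, 21.8 and 459 CPM in the 4 control cultures and 164, 16.1, 229, 115 and 1781 CPM in the 5 CKO cultures. Its log2 fold change of 1.66 (SE 1.36) became -0.16 without CKO 5. Eif2ak2 (ENSMUSG00000024079, chr17:78852564-78882573 of GRCm38, minus strand), the kinase PKR that halts translation on double-stranded RNA, was 1 of the 3 genes with every CKO culture above every control. It had 49.5, 37.8, 38.4 and 51.7 CPM in the 4 control cultures and 74.5, 57.8, 56.3, 74.3 and 152 CPM in the 5 CKO cultures, so that the lowest CKO culture was above control 4 by a small margin, and a log2 fold change of 0.90 (SE 0.41, unadjusted p = 0.0425).

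Interferon-stimulated genes are typically switched on through the interferon-stimulated response element in their promoters, and the word GAAA, followed by any 2 bases and by GAAA again, was searched on both strands in the 250 bases before each gene's start (RefSeq, GRCm38.p6). It occurred in 978 of 32851 promoter windows (2.98%) and in 290 of 10337 windows of tested genes (2.81%). A window was held for 17 of the 23 interferon-stimulated genes, those without one including Mx1, Mx2, Oas2, Usp18 and Rtp4. Counted by gene and not by window, 9 of the 17 held the word in any of their windows, among them Ifit3, Isg15, Oas3 and Stat2. Ifit2 and Irf7 were among the genes with a window but without the word. The 3 stretches shown belong to the genes with the smallest p among the 9, with the word in capitals, 5′ to 3′ on the strand of the gene, because they show the element beside the values of the genes that carry it. A match of letters is a description and not a site of binding.
Rsad2: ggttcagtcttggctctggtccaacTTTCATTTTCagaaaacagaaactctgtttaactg
Ifit1: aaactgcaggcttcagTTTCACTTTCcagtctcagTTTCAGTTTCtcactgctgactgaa
Bst2: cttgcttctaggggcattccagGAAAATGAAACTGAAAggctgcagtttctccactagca
The stretch of Rsad2 (chr12:26456538-26456597, minus strand) spans bases 145 to 86 before the start and holds 1 word, read on the opposite strand. That of Ifit1 (chr19:34640769-34640828, plus strand) spans bases 120 to 61 and holds 2 words, and that of Bst2 (chr8:71537565-71537624, minus strand) spans bases 152 to 93 and holds 2 overlapping words. Rsad2, viperin, had 6.87, 39.8, 4.64 and 106 CPM in the 4 control cultures and 365, 11.6, 59.7, 48.8 and 1585 CPM in the 5 CKO cultures, with a log2 fold change of 3.39 (SE 1.37, unadjusted p = 0.0253). Ifit1, a relative of Ifit2 that binds viral RNA, gave 2.83 (SE 1.32, unadjusted p = 0.0482), and Bst2, tetherin, gave 1.53 (SE 0.73, unadjusted p = 0.0526). In all 3 genes CKO 5 was highest and CKO 1 next, and control 4 was above CKO 2, CKO 3 and CKO 4.

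Presentation of antigen on MHC class I followed the same mice. Of 14 genes 11 were higher in CKO, with a median log2 fold change of 0.92. At an unadjusted p of 0.05 stood 1 of them, beside 1.43% of all genes that were higher. That gene was Nlrc5, the transactivator of MHC class I genes, with 12.4, 33.6, 10.3 and 43.2 CPM in the 4 control cultures and 177, 15.8, 32.5, 26.5 and 157 CPM in the 5 CKO cultures (log2 fold change 1.72, SE 0.71, unadjusted p = 0.028). CKO 1 and CKO 5 were far above the other cultures, which overlapped. B2m, the light chain of MHC class I, gave 1.06 (SE 0.56, unadjusted p = 0.0769), and H2-D1, a heavy chain, 0.99 (SE 0.62, unadjusted p = 0.13). MHC class II genes were higher in 6 of 6 cases with a median of 0.73, none at that threshold, and 0.16 without CKO 5, with 3 of 6 higher.

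Chemokines, metalloproteinases and inflammatory cytokines included genes with large fold changes, and without CKO 1 the median of each list was lower. Of 43 chemokine genes 18 passed the filter, 12 higher in CKO (median 1.93). At an unadjusted p of 0.05 were 5 of these, beside 1.43% of all genes that were higher. The 5 were Ccl5, Ccl4, Cxcl16, Ccl3 and Ccl2. Ccl5, which draws T cells and monocytes, had 0.529, 1.31, 2.41 and 6.54 CPM in the 4 control cultures and 457, 0.825, 3.43, 1.26 and 51.9 CPM in the 5 CKO cultures. CKO 1 was highest and CKO 5 next, and the other CKO cultures lay within the control range (log2 fold change 5.25, SE 1.73, unadjusted p = 0.00838). Without CKO 1 the median of the list was 0.09 with 0 at that threshold. The chemokine genes with the highest mean CPM, Ccl6 and Ccl9, gave -0.33 (SE 0.71) and 0.07 (SE 0.82).

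Mmp13 (ENSMUSG00000050578, chr9:7272514-7283331 of GRCm38, plus strand), an interstitial collagenase, had the smallest p of all 10481 genes. It had 9.34, 19.6, 16.2 and 20.0 CPM in the 4 control cultures and 4005, 4.52, 42.4, 74.0 and 528 CPM in the 5 CKO cultures. CKO 1, CKO 5, CKO 4 and CKO 3 exceeded every control and CKO 2 was the lowest of all 9. The log2 fold change was 5.84 (SE 1.63, unadjusted p = 0.0027, adjusted p = 1.00 by edgeR), and 3.34 without CKO 1. DESeq2 gave 5.86 (SE 1.14, adjusted p = 0.00258), and this was the gene it called. After bleomycin the contrast was 0.45 (SE 1.34), with an unadjusted p = 0.0162 for the interaction. Mmp12, the macrophage elastase, had 516, 1419, 1739 and 2897 CPM in the 4 control cultures and 45078, 761, 1809, 6799.8 and 6432 CPM in the 5 CKO cultures (log2 fold change 2.89, SE 1.01, unadjusted p = 0.0117, 1.27 without CKO 1). CKO 1 was far above the rest, CKO 4 and CKO 5 were above every control, and CKO 2 and CKO 3 lay within the control range. Mmp8, a collagenase best known from neutrophils, had 14.6, 64.7, 134 and 44.5 CPM in the 4 control cultures and 9615, 9.83, 127, 77.3 and 264 CPM in the 5 CKO cultures, so that CKO 1 alone set its log2 fold change of 4.97 (SE 1.66, unadjusted p = 0.00894), which was 0.88 without that mouse. Of 15 metalloproteinase and TIMP genes, 10 were higher in CKO, 4 at an unadjusted p of 0.05, with a median of 0.60, and without CKO 1 the median was 0.21 and the number at that threshold 1. Among female mice alone the median was -0.69. The share of all genes higher at that threshold was 1.43%.

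Of 13 cytokine genes, 9 were higher and 0 were at an unadjusted p of 0.05 (median 0.80, -0.23 without CKO 1). Il1b, the pyrogenic interleukin-1 beta, was at 3728 CPM in CKO 1 and between 5.54 and 123 CPM in the other 8 cultures, and its log2 fold change of 3.82 (SE 2.03) was -0.89 without that mouse. Spp1, osteopontin, gave 0.82 (SE 0.59) and Il1rn, the antagonist of the interleukin-1 receptor, 1.27 (SE 0.74). CKO 1 also had the highest level of the neutrophil marker that passed the filter, at 6.33 log2 CPM against 0.83 to 4.96 in the other 8 cultures, and the lowest level of alveolar macrophage markers, at 4.06. The part of these cells in the chemokine, protease and cytokine levels was not tested.

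Lysosomal genes, abundant in macrophages, were higher in 19 of 20 cases, 2 at an unadjusted p of 0.05, with a median log2 fold change of 0.38. Higher at that threshold were 1.43% of all genes. Ctsl, the protease cathepsin L, had 806, 1007, 806 and 1387 CPM in the 4 control cultures and 5798, 797, 1363, 1365 and 11145 CPM in the 5 CKO cultures. CKO 5 and CKO 1 were several times above the other cultures, whose genotypes overlapped (log2 fold change 2.03, SE 0.74, unadjusted p = 0.0151). Ctss, cathepsin S, gave 1.11 (SE 0.80). The lipid-associated macrophage genes had a median of 0.46 with 5 of 7 higher and none at that threshold. Without control 3 the lysosomal median was 0.16, with 13 of 20 higher. Without CKO 5 it was 0.25, with 0 genes at that threshold.

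**Figure D5:**
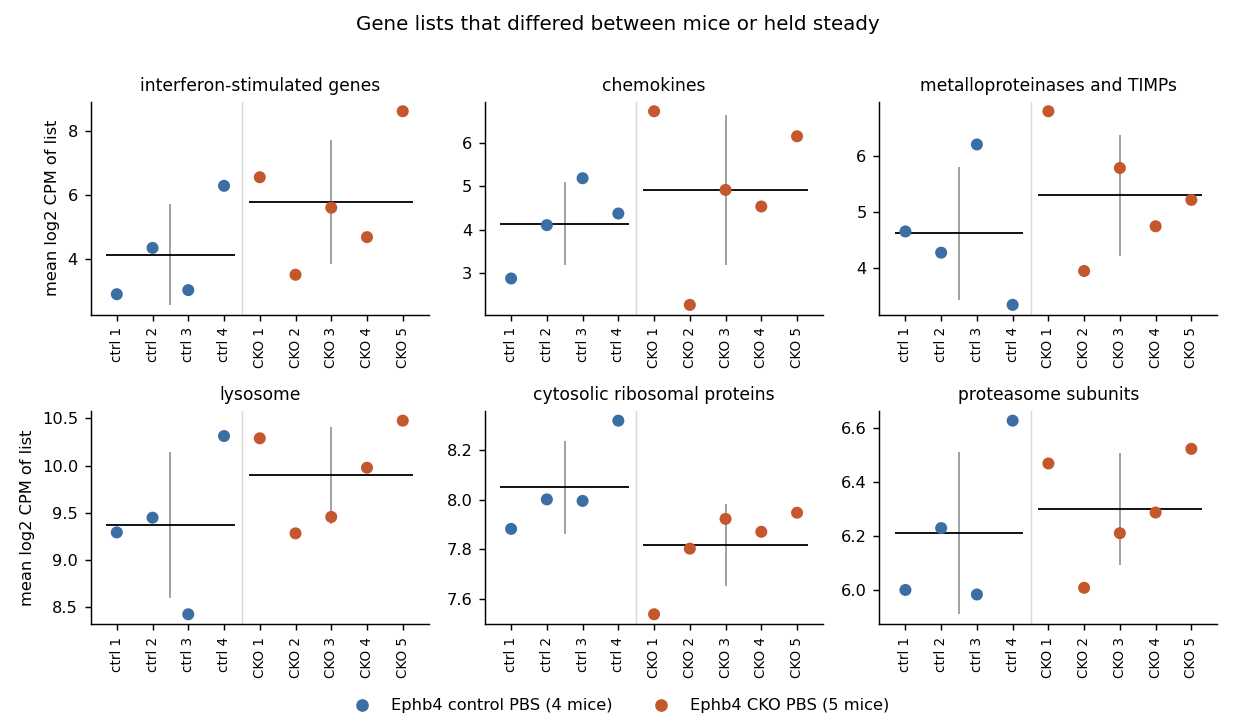
Mean log2 CPM of interferon-stimulated genes, chemokines, metalloproteinases and TIMPs, lysosomal genes, cytosolic ribosomal proteins and proteasome subunits in each PBS culture; points are mice, lines group means and grey bars SDs. CKO 5 (8.63) tops the interferon panel and CKO 1 those of chemokines (6.73) and metalloproteinases (6.81), whereas the ribosomal panel spans less than 1 log2 unit.

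With all mice fitted, ribosomal protein genes were lower in CKO almost without exception, and by a small amount. The filter kept 79 of 83, and 78 of 79 were lower, 5 at an unadjusted p of 0.05 (0.563% of all genes), with a median log2 fold change of -0.25 and a range from -0.43 to 0.01. At the same time 78 were held within 2-fold. In 7 of them every CKO culture lay below every control, where 0.219% of all genes did so. Their mean log2 CPM was 7.88, 8.00, 7.99 and 8.32 in the 4 control cultures and 7.54, 7.80, 7.92, 7.87 and 7.95 in the 5 CKO cultures. CKO 1 was the lowest of the 9 and control 4 the highest, and CKO 3 and CKO 5 lay above control 1. Rpl36a, of the large subunit, had 128, 145, 149.7 and 154 CPM in the 4 control cultures and 80.3, 117, 123, 112 and 103 CPM in the 5 CKO cultures (log2 fold change -0.43, SE 0.15, unadjusted p = 0.0132). The groups did not overlap, and the highest CKO culture was CKO 3. Rpl39, Rpl23a and Rpl5 were likewise apart, with log2 fold changes of -0.37, -0.33 and -0.35. The members with the highest mean CPM, Rplp0 and Rpl4, gave -0.20 (SE 0.17) and -0.26 (SE 0.18) with overlapping groups. Without control 4 the median of the list was -0.16, with 12 of 79 higher and 1 lower at an unadjusted p of 0.05. It was -0.19 without CKO 1, and -0.31 under upper quartile normalization, which moved the median of all genes to -0.07. Many of these genes have processed pseudogenes of near-identical sequence, between which the counting could divide reads. Such a copy, Rps6-ps3, was itself among the genes with no overlap (log2 fold change -0.38, SE 0.18).

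Other genes without overlap were lower in CKO by small amounts. Scarna13 (ENSMUSG00000088789, chr12:105031075-105031349 of GRCm38, minus strand), a small RNA that guides modification of spliceosomal RNA, had 26.2, 46.7, 27.1 and 29.4 CPM in the 4 control cultures and 15.6, 21.7, 25.7, 19.7 and 23.8 CPM in the 5 CKO cultures. Control 2 was the highest, the highest CKO culture was just below the lowest control, and the log2 fold change was -0.60 (SE 0.18, unadjusted p = 0.00504). Rpl22l1, a paralog of the ribosomal protein gene Rpl22, had 46.0, 51.1, 52.6 and 36.3 CPM in the 4 control cultures and 12.3, 36.0, 36.1, 33.2 and 15.3 CPM in the 5 CKO cultures, with CKO 1 and CKO 5 far below the rest and the other CKO cultures just under the lowest control (log2 fold change -0.81, SE 0.29, unadjusted p = 0.0142). Sub1, a transcriptional coactivator, Ift20, a protein of ciliary transport, and Snhg12, a host transcript of small nucleolar RNAs, gave -0.29 (SE 0.11, unadjusted p = 0.0228), -0.39 (SE 0.17, unadjusted p = 0.0349) and -0.42 (SE 0.18, unadjusted p = 0.036). The small nucleolar RNAs themselves were mostly below the filter: 4 of 141 passed and all 4 were lower, 1 at an unadjusted p of 0.05, Snora73a (log2 fold change -0.47, SE 0.20, unadjusted p = 0.0371). Lower at that threshold were 0.563% of all genes. Beside Eif2ak2, the genes higher in every CKO culture were Ocrl, an inositol phosphatase of the endosome, and Synrg, an adaptor partner in vesicle traffic. Ocrl had 26.6, 22.8, 26.8 and 25.3 CPM in the 4 control cultures and 28.4, 27.6, 28.7, 28.6 and 28.1 CPM in the 5 CKO cultures, and Synrg 26.5, 26.8, 17.6 and 26.6 CPM in the 4 control cultures and 30.1, 29.5, 29.5, 28.2 and 29.5 CPM in the 5 CKO cultures. The 5 CKO values were closely grouped in both genes, with log2 fold changes of 0.16 (SE 0.09) and 0.27 (SE 0.18), neither at an unadjusted p of 0.05.

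Genes of energy metabolism and protein breakdown had medians close to 0. Nuclear genes of oxidative phosphorylation had a median log2 fold change of -0.000463, with 73 of 75 held within 2-fold, 36 higher and 39 lower. Among proteasome subunits 34 of 37 were held within 2-fold (median 0.02), and among glycolytic enzymes 11 of 17 (median -0.05), beside 62.6% of all genes. The share of glycolytic enzymes was near that of all genes. None of the genes in these lists reached an unadjusted p of 0.05. Without control 4, however, 70 of 75 genes of oxidative phosphorylation were higher (median 0.20, 6 at that threshold), as were 33 of 37 proteasome subunits (median 0.14, 2 at that threshold), and glycolysis ran from -0.24 without CKO 3 to 0.15 without control 3. Setdb1, a histone methyltransferase, had 37.1, 38.5, 36.6 and 35.9 CPM in the 4 control cultures and 34.0, 38.9, 40.3, 37.3 and 39.7 CPM in the 5 CKO cultures, and Ctcf, the insulator protein, 43.5, 39.8, 44.0 and 37.6 CPM in the 4 control cultures and 37.6, 39.4, 41.2, 41.7 and 40.2 CPM in the 5 CKO cultures. Both lay within a narrow band in every mouse, with log2 fold changes of 0.04 (SE 0.09) and -0.04 (SE 0.09), among the narrowest intervals of all genes. Of the list members, Psmd12 and Psmd1, subunits of the proteasome lid and base, and Smad2, which transmits the TGF-beta signal, were among the steadiest, at 0.01 (SE 0.11), 0.04 (SE 0.12) and 0.08 (SE 0.13). Atp5b, of the ATP synthase, gave -0.02 (SE 0.21), Pkm, pyruvate kinase, 0.16 (SE 0.26) and Flna, filamin A, 0.11 (SE 0.24).

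Cholesterol genes had a median of 0.06 (13 of 20 higher, 9 held within 2-fold), immediate early and MAPK feedback genes one of 0.16 (8 of 13 higher, 3 held), and the 13 protein genes of the mitochondrial genome one of 0.24 (13 higher, 5 held), with 0 genes of these lists at an unadjusted p of 0.05. These medians also rested on single cultures. For cholesterol genes it was -0.25 without CKO 2, 0.27 without CKO 5 and -0.50 among mice whose label numbers begin with 11, where 19 of 20 were lower. For the immediate early genes it ran from -0.04 without CKO 5 to 0.38 without control 3, and for the mitochondrial genome from 0.02 without control 2 to 0.56 without control 1, with 7 of 13 higher without control 2. Genes of endoplasmic reticulum stress and ATF4 were lower in 17 of 18 cases (median -0.31). The 1 at an unadjusted p of 0.05 was Herpud1, a component of degradation at the endoplasmic reticulum, with 41.1, 96.1, 54.8 and 65.5 CPM in the 4 control cultures and 58.3, 39.1, 38.9, 50.8 and 17.4 CPM in the 5 CKO cultures. CKO 5 was the lowest and control 2 the highest, and the other cultures overlapped (log2 fold change -0.65, SE 0.31, unadjusted p = 0.0489). Without control 2 the Herpud1 value was -0.40. The list median was then -0.15, with 4 of 18 higher and 0 at that threshold. With all mice, 0.563% of all genes were lower at that threshold.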

How the data were processed

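Total RNA libraries (strand-specific) were made from 17 cultures, each from 1 mouse, of which the 9 from PBS-treated mice are described. Per the labels and the study's methods, the authors trimmed reads with Cutadapt, aligned them with HISAT2 (2.1.0) to GRCm38, assembled against the annotation with StringTie, and deposited whole-number counts per gene, computed by a StringTie script from coverage, transcript length and a read length of 75 bp. These counts are therefore estimates from coverage. Reads shared by near-identical genes are divided by the aligner's and assembler's rules. The study fitted a batch number as a term, and the batch of each library is not given in the sources used here, so it was not fitted.

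Groups came from the labels, and each of the 17 columns was matched to a sample (0 unmapped). Genes above 10 CPM of the column totals in at least 2 of 17 libraries were kept. CPM printed in the text use TMM library sizes, and log2 CPM a prior count of 2. edgeR 4.0.16 (R 4.3.3) fitted 1 mean per group over all 17 libraries with the quasi-likelihood test, the contrast CKO minus control after PBS, and Benjamini-Hochberg adjustment. Standard errors came from the fold change and its F value, and a gene was held within 2-fold where its 95% interval lay between -1 and 1. The edgeR p-values set each difference against the spread between mice, estimated over all 17 libraries, including those from mice given bleomycin.

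The comparison, the gene lists and the named genes were chosen with earlier results of these data known. Lists carry counts, medians and mean levels, without a test. Named genes were Ephb4, up to 12 genes per direction without overlap between the groups (smallest p first), genes called by edgeR or DESeq2, the member of each list with the smallest p and the 2 with the highest mean CPM, the 22 study genes, the genes with the narrowest intervals and cell markers. Outside that rule, Ephb2 and Ephb3 were named as relatives, Rsad2, Ifit1 and Bst2 for their promoters, and Gm42418 after its values were seen. Some genes that the rule named are not reported here. Other genes appear as members of a count. Alternatives were DESeq2 1.42.0, limma 3.58.1 (voom), other normalizations and filters, covariates, subsets of mice, and leaving out each library. A gene was called reversed only where its value in the report exceeded its own standard error; the turned value itself could lie within its error. The edgeR steps were tested on simulated data.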

Additional observations from a re-analysis of the deposited data

Results flagged for a closer look

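Of 260 groups of values looked at, each the level of a named gene or list in the mice of 1 genotype after PBS, 16 held a mouse whose gap to the nearest other exceeded Dixon's 95% critical value. Chance alone gives about 1 in 20 such groups. Among the controls, control 3 was low for Siglecf at 45.4 CPM (next 151), for Mdm2 at 56.7 CPM (next 79.8) and for Synrg at 17.6 CPM (next 26.5). CKO 3 was high for Pdgfra at 169 CPM (next 8.46) and Mfap5, a microfibril protein, at 7.62 CPM (next 0.413). CKO 5 was high for C1qa at 957 CPM (next 21.9), for Eif2ak2 at 152 CPM (next 74.5) and for the C1q and interstitial macrophage list at 8.27 mean log2 CPM (next 4.57).

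CKO 1 was low for Chil3, an alveolar macrophage gene, at 42.9 CPM (next 781), for Rps6-ps3 at 9.81 CPM (next 15.3) and for the 4 small nucleolar RNAs at 3.30 mean log2 CPM (next 5.51), and high for the inflammatory cytokines at 7.02 mean log2 CPM (next 4.78). CKO 2 was low for Ccl9 at 234 CPM (next 1579.5), and CKO 4 high for Atp5b at 803 CPM (next 669). Gm42418, a long noncoding RNA that was picked after its values were seen, was at 12955 CPM in CKO 2 (next 451) and at 260.2 CPM in control 4 (next 205). It took 1.13% of the counts of CKO 2, and its log2 fold change of 3.71 (SE 1.18, unadjusted p = 0.00688) was 0.44 without that mouse.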

How the results depend on the processing

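The number of genes called stayed at 0 under all 34 alternatives but DESeq2, which called 1 (Mmp13), and the interaction stayed at 0 under the 32 alternatives it could be fitted for. Ephb4 kept its sign and stayed short of the threshold in all of them. The number at an unadjusted p under 0.05, 209 in the report, was less stable. It was 349 by DESeq2, 48 by voom and 95 with sample weights, 457 with edgeR's own filter and 798 without one (more genes were tested), 57 from the 9 PBS libraries alone, 68 among mice whose label numbers begin with 11, and 108 with the macrophage level as a covariate. Without the 3 libraries that went against their labelled sex, a choice made after seeing the data, it was 132. Leaving out 1 library gave between 75 (without CKO 5) and 702 genes (without control 4), with 99 without CKO 1, 138 without control 3, 457 without CKO 2 and 549 without CKO 3. The split of higher against lower was 150 to 59, and became 111 to 86 under upper quartile normalization, 150 to 10 with sex as a covariate, 19 to 29 by voom and 85 to 108 without control 1. Genes held within 2-fold numbered 3590 in female mice alone, where fewer samples were fitted. The number of interaction values at an unadjusted p under 0.05, 363 in the report, was 545 by DESeq2, 713 with edgeR's own filter, 1146 without one, 597 without the 3 libraries named above, 115 with the number series, 110 with the fibroblast and 169 with the macrophage level as a covariate and 44 in females. It was also moved by over 1.5 times by leaving out control 2 (160), control 3 (1244) or control 4 (236) of the PBS groups, or control 1 (196), CKO 2 (599) or CKO 4 (159) of the bleomycin groups. Signs turned, with the cause not tested, for Col1a1 (0.20 by voom, 1.03 with the fibroblast and 0.60 with the macrophage level as a covariate), Col1a2 (1.13), Col3a1 (3.25), Mfap5 (1.09) and Eln (2.40) with the macrophage covariate. The fibroblast level includes Col1a1 itself, so nothing is read from its value under that covariate. With 1 library left out, Col1a1 ranged from -4.22 to 1.68, Col1a2 from -5.19 to 2.80, Col3a1 from -7.29 to 4.98, Mfap5 from -5.79 to 2.13, Eln from -8.08 to 5.14 and Col6a3 from -4.66 to 1.92, each lowest without CKO 3 and highest, with the sign turned, without control 3. C1qa ranged from -0.37 to 3.77 and Irf7 from -0.16 to 3.46, both turned without CKO 5, and Il1b from -0.89 to 4.61, turned without CKO 1. Il1b also turned in the number series 11 (-0.87) and in females (-0.74). Of 1360 list medians recomputed, 15 moved by more than the spread between mice. Among them were medians from female mice alone, 3 control and 2 CKO after PBS. These were -3.49 for collagen chains, -1.96 for procollagen modification and -0.69 for metalloproteinases and TIMPs. Chemokines gave 0.43 and inflammatory cytokines -0.48 in the same mice. The turned values by voom, with the macrophage covariate, for C1qa, for Irf7 and for Il1b, other than that of the number series, were smaller than their own standard errors. No paired analysis was possible because the replicate numbers only name the mice.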

Other observations

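Guanylate-binding proteins and immunity-related GTPases, which interferon-gamma induces to attack vacuoles of pathogens, were chosen as a list after their values were seen, so no test was made of it. All 15 that passed the filter were higher in CKO, 12 at an unadjusted p of 0.05 (1.43% of all genes were higher at that threshold), with a median log2 fold change of 2.40. Their mean log2 CPM was 2.21, 3.66, 3.42 and 3.84 in the 4 control cultures and 7.68, 2.23, 4.09, 3.22 and 6.69 in the 5 CKO cultures. CKO 1 and CKO 5 stood apart and the other 3 CKO cultures lay near the controls. Without CKO 1 the median was 1.33 with 1 gene at that threshold, and without CKO 5 it was 1.93 with 8, and without control 1 the number was 6.

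Translation factors and host transcripts of small nucleolar RNAs were likewise listed after their values were seen. Of 14 elongation and initiation factors, subunits of the nascent polypeptide complex and ribosome-associated proteins, 13 were lower in CKO, 0 at an unadjusted p of 0.05, with a median of -0.23 and all 14 held within 2-fold. Of 12 host transcripts 11 were lower, 4 at that threshold (0.563% of all genes were lower at it), namely Snhg1, Snhg5, Snhg12 and Gas5, with a median of -0.33. The latter list had 0 at that threshold without control 3 or without CKO 1, with medians of -0.22 and -0.33.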
